A study of Homo sapiens with 8 samples.

Results

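The genes described here are the non-coding host genes of small nucleolar RNAs (snoRNAs). They were taken as every counted gene named SNHG followed by a number, together with GAS5, ZFAS1 and EPB41L4A-AS1, which gave 27 genes of the 57189 in the count files. Messenger RNA was measured in CUTLL1 and TIB153, a pair of human cell lines from T-cell acute lymphoblastic leukemia (T-ALL). The labels write CUTLL1 as CUTTL1. The groups were CUTLL1 cells given PKF and CUTLL1 control cells, and TIB153 cells given PKF and TIB153 control cells. PKF, listed as β-Catenin/Tcf Inhibitor II and an inhibitor of the β-catenin/TCF complex through which Wnt signaling switches on its target genes, was used at 1 µM for 24 h. There were 4 libraries, 1 in each group, and the 2 sequencing lanes of each were summed. The comparison asks which transcripts differ between T-ALL cells given this inhibitor and control cells. The paper reports reduced viability and signs of apoptosis in these lines when they were given the inhibitor. The part of cell loss and cell death in the differences below, beside that of inhibited signaling, was not tested.

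A snoRNA host gene is transcribed by RNA polymerase II and spliced, and the snoRNA is cut out of an intron. Box C/D snoRNAs guide 2′-O-methylation and box H/ACA snoRNAs guide pseudouridylation of ribosomal and spliceosomal RNA, while small Cajal body RNAs (scaRNAs) act in the same way on spliceosomal RNA. The spliced exons left behind carry only short reading frames, and the exonic RNA of several hosts is a known substrate of nonsense-mediated decay (NMD), which needs translation. Many hosts belong to the class of genes whose transcripts open with a C followed by a run of pyrimidines (a 5′ terminal oligopyrimidine tract, 5′TOP), a feature shared with ribosomal protein mRNAs. The libraries were enriched for polyadenylated RNA, so the counts measure mainly the spliced host transcripts and not the mature snoRNAs.

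The first 30 bases of GENCODE v29 transcripts (GRCh38) are shown for 5 hosts that passed the test across lines, to let the opening of hosts that rose and of hosts that fell be compared. The transcript with the longest opening run was taken for each gene, and most transcripts of these genes do not open on one. Capitals mark the opening pyrimidine run. GAS5 (chr1:173867960-173867989, minus strand) and SNHG5 (chr6:85678704-85678733, minus strand) rose, and SNHG16 (chr17:76557769-76557798, plus strand), SNHG4 (chr5:139274102-139274131, plus strand) and SNHG3 (chr1:28506043-28506072, plus strand) fell. All lie in the first exon of the named transcript.
GAS5-226: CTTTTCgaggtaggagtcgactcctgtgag
SNHG5-212: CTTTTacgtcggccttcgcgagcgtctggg
SNHG16-205: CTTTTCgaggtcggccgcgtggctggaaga
SNHG4-209: CCTTTCCCCTCCggcctctgccggtgctgc
SNHG3-203: CCTTTTTggagacagattcgcagtggtcgc
GAS5 and SNHG16 shared their first 11 bases in the transcripts shown. GAS5 rose and SNHG16 fell, and which transcripts the cells used was not measured.

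The window around the RefSeq start site (GRCh38.p14) is shown for SNHG7, the host with the largest increase across lines, and SNHG1, which also rose. Each runs from 25 bases before the start to 35 bases from it on. SNHG7 lies at chr9:136728150-136728209 and SNHG1 at chr11:62855851-62855910, both on the minus strand, and capitals mark the longest pyrimidine run that begins with C within 5 bases of the start.
SNHG7: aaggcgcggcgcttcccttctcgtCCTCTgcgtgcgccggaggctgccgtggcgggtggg
SNHG1: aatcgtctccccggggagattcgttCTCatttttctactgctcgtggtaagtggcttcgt
In SNHG1 the run was interrupted by an A after the third base.

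One snoRNA from each of 3 hosts is shown to make the hosted product visible. SNORD50B (chr6:85677589-85677658, minus strand, inside SNHG5) and SNORD1B (chr17:76561109-76561192, plus strand, inside SNHG16) are box C/D RNAs, with box C (TGATGA) and box D (CTGA) in capitals. SNORA73A (chr1:28507366-28507571, plus strand, inside SNHG3) is a box H/ACA RNA, with its ACA box in capitals. The sequences are those of GENCODE v29.
SNORD50B: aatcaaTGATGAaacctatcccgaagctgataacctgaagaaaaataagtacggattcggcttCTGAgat
SNORD1B: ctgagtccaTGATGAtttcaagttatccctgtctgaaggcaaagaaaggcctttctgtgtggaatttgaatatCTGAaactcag
SNORA73A: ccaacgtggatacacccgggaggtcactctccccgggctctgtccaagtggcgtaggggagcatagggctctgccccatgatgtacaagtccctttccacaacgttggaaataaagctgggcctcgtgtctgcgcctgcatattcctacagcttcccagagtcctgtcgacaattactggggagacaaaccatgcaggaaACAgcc

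Library totals lay between 7609427 and 8140391 counts, and levels were scaled to library size as CPM, on which 3 counts lay between 0.369 and 0.394. All 14 T-lineage markers were detected in every library, with a summed level of 3413 CPM with PKF and 4832 CPM in controls in CUTLL1, and 3382 CPM with PKF and 3566 CPM in controls in TIB153. Erythroid markers were at 0 except for 1 gene in the TIB153 control library. Summed myeloid markers lay between 0.614 and 3.15 CPM. Summed stromal and epithelial markers stood at 51.8 CPM with PKF and 56.8 CPM in controls in CUTLL1, and at 125 and 155 CPM in TIB153. Most of that was PECAM1, at 44.5 and 48.9 CPM in CUTLL1 and 120 and 149 CPM in TIB153. The summed B-lineage level was 14.3 CPM with PKF and 10.6 CPM in controls in CUTLL1, and 108 CPM with PKF and 78.2 CPM in controls in TIB153. It came almost wholly from CD79A, with MS4A1 at 0 reads in every library. Mitochondrial transcripts took 3.78% of counts with PKF and 4.18% in controls in CUTLL1, and 5.06% with PKF and 4.01% in controls in TIB153. The part of these shifts in the results below was not tested. In bulk RNA, a change per cell and a change in which cells remained cannot be told apart.

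The 27 host genes together took 12827 reads with PKF and 9791 in controls in CUTLL1, and 14765 reads with PKF and 10766 in controls in TIB153. That is 1609 CPM with PKF against 1287 CPM in controls in CUTLL1, and 1814 CPM against 1382 CPM in TIB153. On the TMM scale the summed level was 1.21-fold higher in CUTLL1 and 1.26-fold higher in TIB153. The sum was carried by few genes, since the 5 most counted hosts held between 50.6% and 62.7% of it in each library. Of the 27, 19 reached at least 5 CPM in at least 1 library. SNHG9, SNHG21, SNHG25 and SNHG26 were lower, with 13 to 34 reads per library. SNHG22 had 1 read in all, and SNHG18, SNHG27 and SNHG28 had none in any library, which allows up to 3 counts in each. The filter on low counts kept 23 hosts for the tests.

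In control cells, the order of the hosts was read per kilobase of merged exon length, since longer genes collect more reads. Merged length counts the exons of all annotated transcripts and can far exceed that of a transcript. It was 3.631 kb in GAS5, 3.756 kb in SNHG1 and 2.806 kb in SNHG5, where the median transcript had 688, 748 and 672 bases. In SNHG19 it was 0.342 kb, with a median transcript of 342 bases. The order below holds for merged length only and could differ by transcript length. In CUTLL1 controls the highest were SNHG19 at 69.9 CPM per kb (95% Poisson interval 60.1 to 80.9, counting error only), SNHG5 at 58.3 (55.1 to 61.6) and SNHG6 at 57.5 (52.8 to 62.6). The intervals of these 3 overlapped, and so did those of SNHG1 at 46.5 and GAS5 at 45.0 CPM per kb. In TIB153 controls SNHG6 came first with 70.4 CPM per kb (65.2 to 75.9), followed by SNHG8 with 63.1 (57.4 to 69.2), GAS5 with 53.5 and SNHG19 with 52.9. Neither SNHG6 and SNHG8 nor GAS5 and SNHG19 differed beyond their intervals. SNHG8 stood at 30.5 CPM per kb (26.5 to 34.8) in CUTLL1 controls, below its level in TIB153 controls. SNHG14, the imprinted host of the SNORD115 and SNORD116 clusters, was near the bottom in both lines, at 1.18 CPM per kb in CUTLL1 controls and 1.58 in TIB153 controls. Its merged exons are much longer than those of the other hosts.

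**Figure D1:**
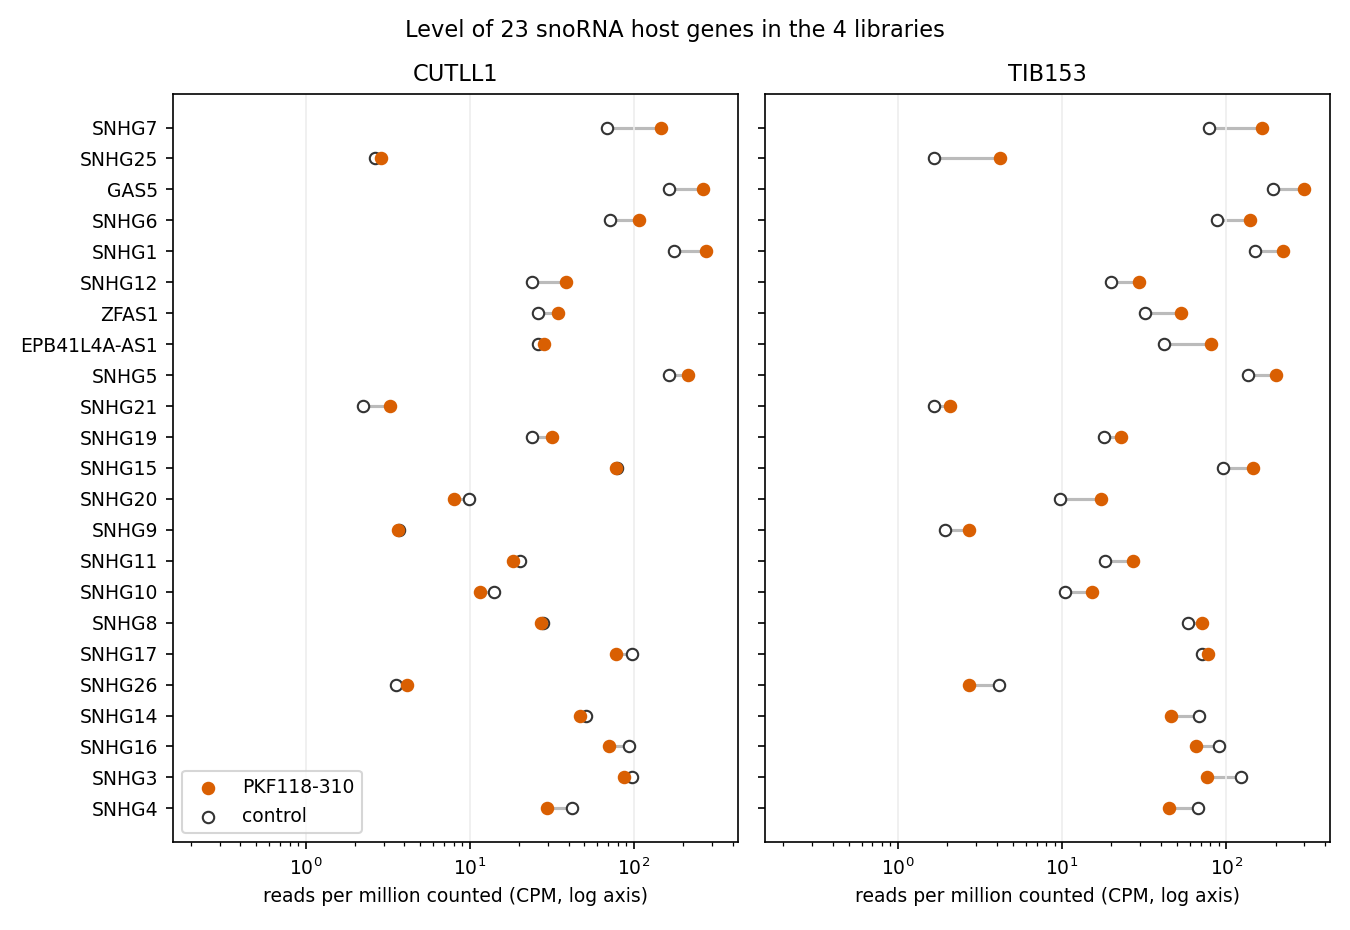
Level of the 23 snoRNA host genes that passed the filter on low counts, in CPM on a log axis, with 1 library per point. Filled points are PKF libraries and open points are control libraries, joined by a grey line within each T-ALL line. Hosts are ordered by their mean log2 ratio, from SNHG7 at the top to SNHG4 at the bottom.

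Across both lines, 5 hosts rose and 3 fell of the 23 tested, at an adjusted p under 0.05 (edgeR quasi-likelihood test with the line as a block). Over all 13280 genes tested, 6.11% rose and 6.78% fell (812 and 900 genes, or 827 and 552 when scaled by library totals alone). SNHG7, GAS5, SNHG1, SNHG6 and SNHG5 rose, by 1.34-fold to 2.03-fold. SNHG4, SNHG3 and SNHG16 fell, and were 1.40-fold to 1.53-fold lower with PKF. At an unadjusted p under 0.05 the counts were 8 and 4 of the 23 hosts, beside 1847 and 1966 of the 13280 genes. The lines serve as the only replicates in this test, which left 1 residual degree of freedom and drew its estimate of spread largely from all genes.

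SNHG7, host of the H/ACA RNAs SNORA17A and SNORA17B, had 1161 reads with PKF and 519 in controls in CUTLL1, and 1340 reads with PKF and 615 in controls in TIB153. Both PKF libraries lay above both controls, which are the libraries that the test used. The increase was 2.06-fold in CUTLL1 (log2 ratio 1.05, 95% interval 0.90 to 1.20) and 1.997-fold in TIB153 (0.998, 0.86 to 1.14). Across lines the log2 change was 1.02 ± 0.13 (SE, adjusted p = 0.000461), which ranked 32nd by p among all genes tested. SNHG7 (chr9:136721366-136728184, minus strand) shares 25.2% of its exonic bases with FAM69B on the opposite strand, and whether strand was used in counting is not known.

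GAS5, a box C/D host named for its accumulation in growth-arrested cells, had 2108 reads with PKF and 1244 in controls in CUTLL1, and 2431 with PKF and 1515 in controls in TIB153. The log2 ratio was 0.65 (0.54 to 0.75) in CUTLL1 and 0.56 (0.46 to 0.65) in TIB153. GAS5 rose by 0.60 ± 0.12 on the log2 scale across lines (SE, adjusted p = 0.00851). It was the most counted host in TIB153 and was close to SNHG1 in CUTLL1.

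Inside SNHG1, 6 box C/D RNA genes were counted (SNORD22, SNORD25 to SNORD28 and SNORD30), which may not be all that it hosts. SNHG1 had 2201 reads with PKF and 1328 in controls in CUTLL1, and 1821 with PKF and 1171 in controls in TIB153. Its log2 change across lines was 0.56 ± 0.12 (SE, adjusted p = 0.0112). SNHG1 shares no exonic base with an opposite-strand gene, and 3.33% with a snoRNA gene on its own strand.

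SNHG6, host of SNORD87, had 858 reads with PKF and 546 in controls in CUTLL1, and 1144 with PKF and 684 in controls in TIB153. The log2 change was 0.58 ± 0.13 (SE, adjusted p = 0.0121). SNHG6 shares 29.3% of its exonic bases with MCMDC2 on the opposite strand, a gene with 0 or 1 read in every library.

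SNHG5, host of SNORD50B, had 1709 reads with PKF and 1245 in controls in CUTLL1, and 1639 with PKF and 1057 in controls in TIB153. The log2 ratio was 0.34 (0.24 to 0.45) in CUTLL1 and 0.51 (0.39 to 0.62) in TIB153, and the change across lines was 0.42 ± 0.12 (SE, adjusted p = 0.0360). SNHG5 shares no exonic base with another gene. For each of the 5 hosts that rose, both PKF libraries lay above both controls in CPM. The hosts were called on these same libraries, so this is no separate support, and the share over all genes was not computed.

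The 3 hosts that fell carry H/ACA RNAs in SNHG3 and SNHG4 and C/D RNAs in SNHG16. SNHG4, host of SNORA74A and SNORA74D, had 236 reads with PKF and 321 in controls in CUTLL1, and 363 with PKF and 528 in controls in TIB153. Its log2 change across lines was -0.61 ± 0.16 (SE, adjusted p = 0.0233). The level in TIB153 cells with PKF (44.6 CPM) was slightly above that of CUTLL1 controls (42.2 CPM). On the TMM scale that the test uses, these levels were 43.3 and 43.4, so whether the groups overlap turns with the scaling. SNHG4 shares 14.0% of its exonic bases with MATR3 on the same strand, which had 5144 reads with PKF and 4767 in controls in CUTLL1, and 5508 with PKF and 5787 in controls in TIB153.

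SNHG3, host of SNORA73A and SNORA73B, had 691 reads with PKF and 745 in controls in CUTLL1, and 619 with PKF and 958 in controls in TIB153. The log2 ratio was -0.22 (-0.37 to -0.07) in CUTLL1 and -0.76 (-0.90 to -0.61) in TIB153. The change across lines was -0.49 ± 0.15 (SE, adjusted p = 0.0469), close to the threshold. SNHG16, host of SNORD1A, SNORD1B and SNORD1C, had 561 reads with PKF and 707 in controls in CUTLL1, and 533 with PKF and 702 in controls in TIB153. It fell by 0.49 on the log2 scale (SE 0.13, adjusted p = 0.0309). Both SNHG3 and SNHG16 were lower in both PKF libraries than in both controls, again the libraries on which they were called. SNHG16 shares 30.6% of its exonic bases with AC015802.6 on the opposite strand, which had 0 reads in every library. SNHG3 shares 5.92% with RCC1 on the same strand, which had 2041 reads with PKF and 2251 in controls in CUTLL1, and 1612 with PKF and 1913 in controls in TIB153.

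The calls depended on the tool. With DESeq2's Wald test 3 hosts rose (SNHG7, GAS5 and SNHG1) and 0 fell, the adjusted p being 0.0826 for SNHG6, 0.176 for SNHG5, 0.175 for SNHG4, 0.208 for SNHG16 and 0.216 for SNHG3. At an unadjusted p under 0.05 that test gave 5 and 3, and limma-voom gave 5 and 2 after adjustment. Over all genes, 196 rose and 253 fell after adjustment with DESeq2's Wald test, and 798 and 864 with limma-voom. Without the line as a block no gene of the 13280 passed, hosts included (4 hosts higher and 1 lower at an unadjusted p under 0.05). Unadjusted counts over all genes were not computed for these other fits.

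**Figure D2:**
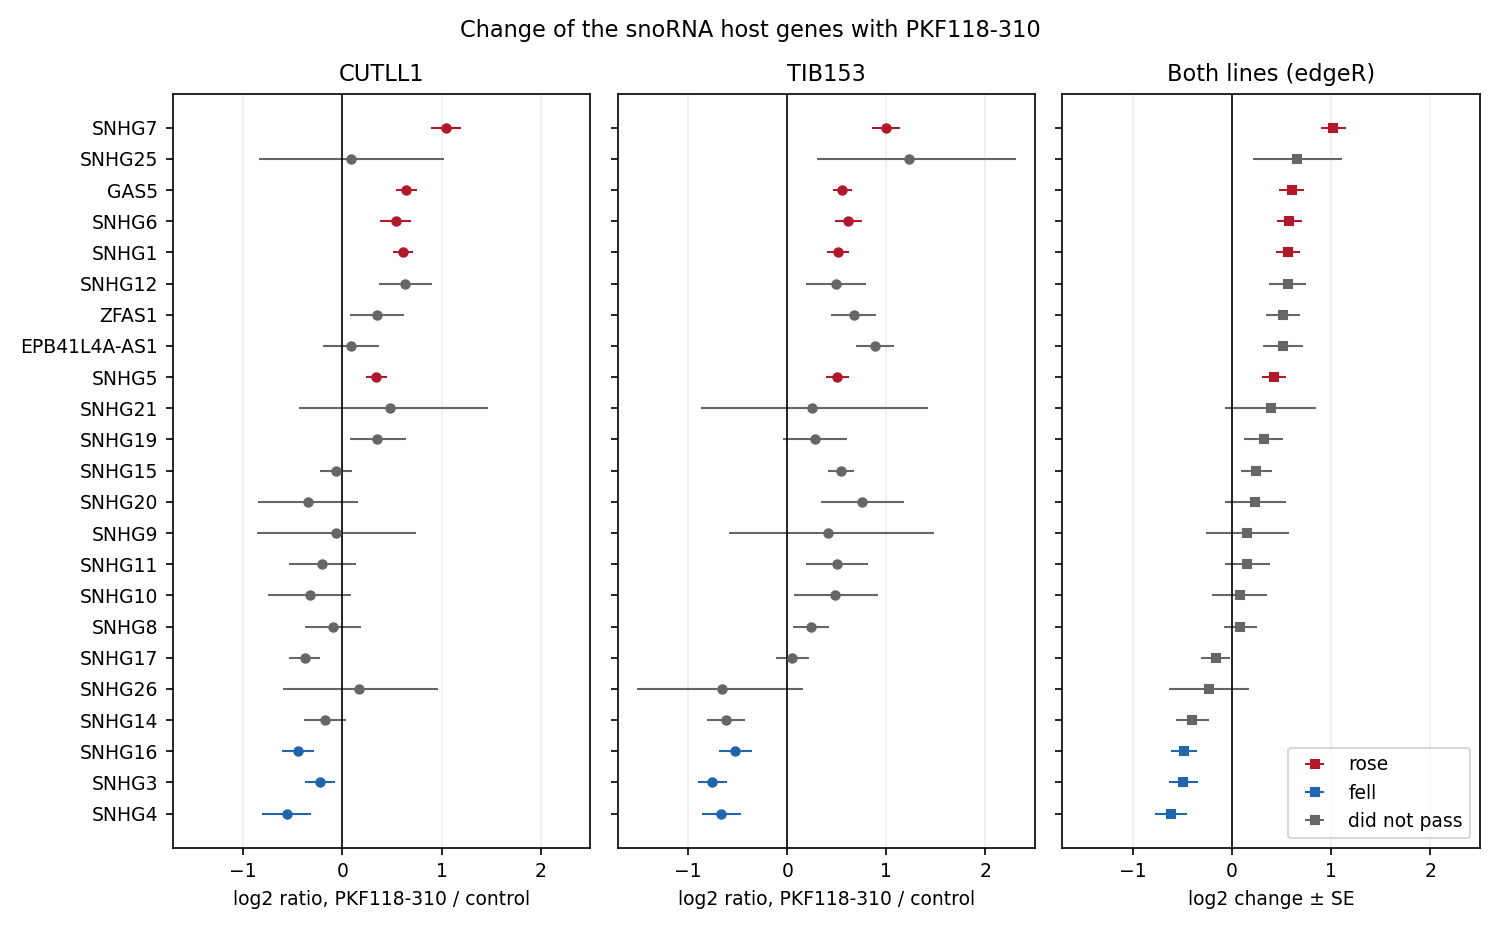
Change of the 23 hosts with PKF. The left and middle panels give the within-line log2 ratio (PKF over control) for CUTLL1 and TIB153 with 95% counting intervals (1 library per group), and the right panel gives the edgeR log2 change across both lines ± SE. SNHG7 stands farthest to the right among the hosts above 5 CPM, and the 3 hosts that fell lie left of 0 in both lines.

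Within each line, where 1 library per group allows no test, 8 hosts were higher and 4 lower beyond counting error in CUTLL1, beside 23.3% and 23.9% of all genes. In TIB153, 14 hosts were higher and 4 lower, beside 25.2% and 28.7% of all genes. In both lines alike, 7 hosts were higher, beside 13.1% of all genes, and 3 were lower, beside 15.7%. The 7 were SNHG7, GAS5, SNHG1, SNHG6, SNHG5, SNHG12 and ZFAS1, and the 3 were those that fell across lines. No host differed beyond counting error in opposite directions in the lines, beside 3.4% of all genes. At a 2-fold limit only SNHG7 was higher in CUTLL1, beside 4.8% of all genes, and only SNHG25 in TIB153, beside 5.47%. SNHG7 in TIB153 lay just under the limit, at a log2 ratio of 0.998. No host was 2-fold lower in either line, beside 2.21% of all genes in CUTLL1 and 2.12% in TIB153. The median log2 ratio of the 23 hosts was 0.082 in CUTLL1 and 0.49 in TIB153, against 0.003 and -0.009 over all genes tested.

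SNHG12 and ZFAS1 were higher in both lines but did not pass across lines. SNHG12, host of SNORA16A, SNORA44, SNORA61 and SNORD99, had 306 reads with PKF and 182 in controls in CUTLL1, and 239 with PKF and 156 in controls in TIB153 (log2 change 0.56 ± 0.19 SE, adjusted p = 0.0615). ZFAS1, host of the SNORD12 family, had 273 reads with PKF and 198 in controls in CUTLL1, and 434 with PKF and 250 in controls in TIB153 (0.51 ± 0.17 SE, adjusted p = 0.0680). ZFAS1 shares 26.1% of its exonic bases with opposite-strand genes, among them ZNFX1, which had 675 reads with PKF and 406 in controls in CUTLL1, and 535 with PKF and 439 in controls in TIB153. ZNFX1 was thus higher with PKF in both lines, as ZFAS1 was, and its part in the ZFAS1 counts was not tested. SNHG19, host of SNORD60, had 252 reads with PKF and 182 in controls in CUTLL1, and 187 with PKF and 141 in controls in TIB153. Its interval excluded no change in CUTLL1 only.

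The other hosts differed between the lines. EPB41L4A-AS1, host of SNORA13, had 657 reads with PKF and 326 in controls in TIB153, a 1.85-fold higher level, against 227 reads with PKF and 198 in controls in CUTLL1. SNHG15, host of SNORA9, had 1191 reads with PKF and 750 in controls in TIB153, and 619 with PKF and 598 in controls in CUTLL1. In CUTLL1 the intervals of both genes included no change. EPB41L4A-AS1 shares 49.6% of its exonic bases with EPB41L4A on the opposite strand, a gene with 0 reads in every library, and SNHG15 shares none with another gene.

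The scaRNA hosts SNHG10 (SCARNA13) and SNHG20 (SCARNA16) were higher in TIB153 beyond counting error and not in CUTLL1. SNHG20 had 140 reads with PKF and 76 in controls in TIB153, and 64 with PKF and 75 in controls in CUTLL1. SNHG10 had 124 reads with PKF and 81 in controls in TIB153, and 92 with PKF and 107 in controls in CUTLL1. The H/ACA host SNHG11 showed a like pattern, with 219 reads with PKF and 142 in controls in TIB153, and 146 with PKF and 155 in controls in CUTLL1. SNHG8, host of SNORA24, had 584 reads with PKF and 454 in controls in TIB153, and 217 with PKF and 214 in controls in CUTLL1.

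SNHG17 and SNHG14 were lower beyond counting error in 1 line each. SNHG17, host of the SNORA71 family, had 621 reads with PKF and 746 in controls in CUTLL1, and 627 with PKF and 555 in controls in TIB153. SNHG14 had 378 reads with PKF and 532 in controls in TIB153, and 373 with PKF and 389 in controls in CUTLL1. For 10 hosts the counting interval of the difference between the lines' log2 ratios excluded 0. They were EPB41L4A-AS1, SNHG3, SNHG5, SNHG8, SNHG10, SNHG11, SNHG14, SNHG15, SNHG17 and SNHG20. With 1 library per group these differences have no replicate check. The share of all genes that meet this condition was not computed, so the count does not set these hosts apart. Of the 23 hosts, 15 had the same sign in both lines, beside 70.8% of all genes.

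**Figure D3:**
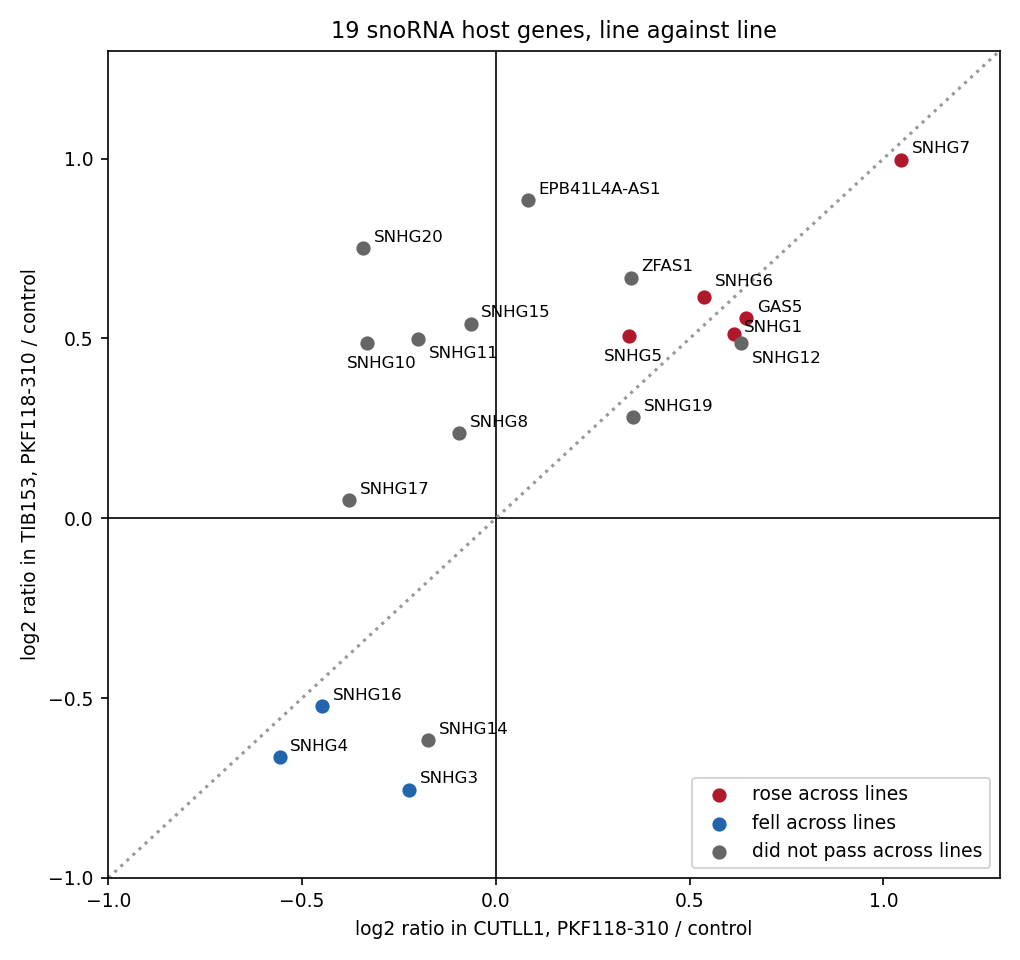
Within-line log2 ratio (PKF over control), CUTLL1 on the horizontal and TIB153 on the vertical axis, for the 19 hosts that reached 5 CPM, 1 point per gene, with the dotted line marking equal ratios. The 5 hosts that rose and the 3 that fell lie in the upper right and lower left of the plot, and the upper left holds SNHG8, SNHG10, SNHG11, SNHG15, SNHG17 and SNHG20.

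The 4 hosts with few reads gave wide intervals. SNHG25 (SNORA50C, SNORD104) had 34 reads with PKF and 13 in controls in TIB153, and 23 with PKF and 20 in controls in CUTLL1. SNHG26 (SNORD93) had 22 reads with PKF and 32 in controls in TIB153, and 33 with PKF and 27 in controls in CUTLL1. SNHG21 (SCARNA15) and SNHG9 (SNORA78) had between 13 and 29 reads in each library. SNHG21 shares 72.9% of its exonic bases with AC105339.2 on the same strand, and SNHG25 shares 48.6% with a snoRNA gene, so their counts are uncertain.

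Calls in both directions occurred in hosts of both RNA classes. Classes were set by the snoRNA genes counted inside each host, which may not be all that it carries. Among 8 hosts of C/D RNAs only, 3 rose and 1 fell, with a median mean log2 ratio of 0.37 and a range of -0.49 to 0.58. Among 9 hosts of H/ACA RNAs only, 1 rose and 2 fell, with a median of 0.15 and a range of -0.61 to 1.02. SNHG7 and SNHG4, the hosts at both ends of that range, each had a pair of H/ACA RNA genes counted inside. GAS5 had no snoRNA gene among the rows analysed here and is left out of both groups. The split is a description, made after the values were seen.

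The snoRNA genes counted inside the hosts had few reads. Their 126 rows held 78 reads with PKF and 104 in controls in CUTLL1, and 119 with PKF and 133 in controls in TIB153. The hosts that contain them held 10719 reads with PKF and 8547 in controls in CUTLL1, and 12334 with PKF and 9251 in controls in TIB153. The rows inside SNHG1, SNHG5, SNHG6 and SNHG7 had 0 reads in every library. Those inside SNHG25 had the most, with 26 with PKF and 44 in controls in CUTLL1, and 39 with PKF and 59 in controls in TIB153. The mature snoRNAs were therefore not compared.

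Sequence at the start sites was compared with that of all RefSeq promoters (250 bases before to 50 bases after the start). RefSeq promoters were matched for 23 of the 27 hosts. The TCF core CTTTGA was found on neither strand in any of the 23, beside 12.9% of 35116 promoters. The E-box CACGTG occurred in SNHG7 alone, beside 7.26% of promoters, and the ATF4/CHOP element TGATGCAA in none, beside 0.866%. No match says only that these letters are not in the window. A pyrimidine run of at least 5 bases beginning with C within 5 bases of the start was found in 10 of the 23 hosts, beside 21.1% of all promoters and 64.0% of those of ribosomal protein genes. The hosts with the run were SNHG4, SNHG5, SNHG7, SNHG8, SNHG12, SNHG16, SNHG17, SNHG18, SNHG19 and ZFAS1. The minimum of 5 bases was chosen after minimums of 4, 5, 6 and 8 had been tried, which gave 14, 10, 6 and 3 hosts, beside 34.1%, 21.1%, 11.1% and 5.37% of all promoters. The RefSeq start lies 163 bases from the 5′ end of the counted gene in GAS5, 200 in SNHG28, 464 in ZFAS1, 1259 in SNHG12, 1927 in SNHG20, 8464 in SNHG27 and 154975 in SNHG14, and at most 76 in the others. At the RefSeq start of GAS5 the run was 1 base long. In GENCODE v29, 33 of 247 transcripts of the hosts (13.4%) opened on such a run, beside 2.41% of 206694 transcripts, and 14 of the 27 hosts had at least 1. Among the hosts that rose, a run opened 3 of 5 transcripts of SNHG6, 6 of 29 of GAS5 and 3 of 23 of SNHG5. It opened 1 of 25 transcripts of SNHG1 and 0 of 4 of SNHG7, which rose too. It opened 2 of 8 transcripts of SNHG16, 4 of 9 of SNHG4 and 1 of 3 of SNHG3, which fell.

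The genes called in the machinery that binds and matures snoRNAs were all decreases, in short lists. They were 50% of 4 H/ACA core proteins, 25% of 4 C/D core proteins and 25% of 12 assembly and transport factors. Over all genes 6.78% fell and 6.11% rose, so lists this short could hold no increase at that share. Of the 4 box H/ACA core proteins, NHP2 fell (log2 change -0.47 ± 0.12 SE, adjusted p = 0.0223) and DKC1, the pseudouridine synthase, fell (-0.46 ± 0.12 SE, adjusted p = 0.0253). GAR1 (-0.39) and NOP10 (-0.34) stayed below the threshold. Among the 4 box C/D core proteins NOP56 fell, by 0.57 on the log2 scale, while the methyltransferase FBL was at -0.13 and NOP58 at -0.09, neither of which passed. Of 12 assembly and transport factors, RUVBL1 (-0.94), SHQ1 (-0.87) and NOLC1 (-0.60) fell and 0 rose (1 at an unadjusted p under 0.05 in edgeR). Under library totals alone, 1 H/ACA protein fell instead of 2, and with DESeq2's Wald test none of the 4 did.

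Among protein-coding hosts of snoRNAs, 2 of 53 tested rose and 7 fell across lines, or 3.77% and 13.2%, beside 6.11% and 6.78% of all genes. Beyond counting error, however, more were higher than lower, with 22 higher and 18 lower in CUTLL1, and 32 higher and 16 lower in TIB153. In CUTLL1 that is 41.5% and 34%, beside 23.3% and 23.9% of all genes. In TIB153 it is 60.4% and 30.2%, beside 25.2% and 28.7%. The median log2 ratio was 0.05 in CUTLL1 and 0.20 in TIB153. NCL, encoding nucleolin, had 11968 reads with PKF and 18072 in controls in CUTLL1, and 8909 with PKF and 15730 in controls in TIB153 (log2 change -0.83 ± 0.14 SE, adjusted p = 0.00289). PTCD3, TCP1, NOP56, SF3B3, WDR43 and DKC1 fell as well, and NOP56 and DKC1 stand in this list and among the core proteins. DDX39B (0.58) and TAF1D (0.54) rose. DANCR, a non-coding host outside the naming rule, fell by 0.65 (SE 0.15, adjusted p = 0.0128), a call that DESeq2's Wald test did not make. With that test 0 of the protein-coding hosts rose and 4 fell. The difference between this list and the non-coding hosts was not tested.

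Ribosomal protein genes, which carry 5′TOP tracts too, gave few calls. Of 81 tested, RPS27 rose (0.44 ± 0.13 SE) and RPL7L1 and RPL36A fell (-0.71 and -0.88), although 69 were higher beyond counting error in TIB153 and 45 in CUTLL1. That is 85.2% in TIB153 and 55.6% in CUTLL1, beside 25.2% and 23.3% of all genes. Across lines 1.23% of the list rose and 2.47% fell, beside 6.11% and 6.78% of all genes. The list was taken by gene name. RPS27, RPL7L1 and RPL36A were named after their values were seen. The median log2 ratio was 0.07 in CUTLL1 and 0.23 in TIB153.

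Genes of the decay pathway that acts on host transcripts were called in both directions. Of 20 NMD and exon junction factors, CASC3 (0.63) and DHX34 (0.53) rose and MAGOHB (-0.68) fell. That is 10% and 5% of the factors, beside 6.11% and 6.78% of all genes. Of 21 mRNA decay enzymes, PATL1 (0.68) and PAN2 (0.64) rose and MTREX (-0.54), the helicase of the nuclear exosome, fell. That is 9.52% and 4.76% of the enzymes, beside the same shares of all genes. Calls this few do not set either list apart from all genes. Of 10 mRNAs known to be NMD-sensitive, ATF3, DDIT3 and GADD45B rose and TBL2 fell, or 30% and 10% of the list. DDIT3 had 335 reads with PKF and 86 in controls in CUTLL1, and 266 with PKF and 44 in controls in TIB153 (log2 change 2.13 ± 0.23 SE). SLC7A11, the cystine transporter subunit, had 1101 reads with PKF and 395 in controls in CUTLL1, and 443 with PKF and 56 in controls in TIB153, with log2 ratios of 1.36 in CUTLL1 and 2.85 in TIB153, and missed the threshold across lines (adjusted p = 0.0571). With limma-voom, DESeq2 size factors, library totals, no filter, the 5 CPM filter or lane 1 alone, 4 genes of this list rose. With DESeq2's Wald test 2 rose and 0 fell, and the NMD factors and decay enzymes had 1 that rose and 0 that fell each. ATF3, DDIT3 and GADD45B are also known as stress-response genes.

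Other non-coding RNAs were compared as well. Of 5 nuclear-retained long non-coding RNAs, KCNQ1OT1 (1.81), MALAT1 (1.01) and NEAT1 (0.75) rose. MALAT1 had 6436 reads with PKF and 3148 in controls in CUTLL1, and 6526 with PKF and 2792 in controls in TIB153. Of 111 expressed LINC genes 8 rose and 0 fell, or 7.21% and 0%, beside 6.11% and 6.78% of all genes. At an unadjusted p under 0.05 the LINC counts were 17 and 4, beside 1847 and 1966 of all 13280 genes.

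**Figure D4:**
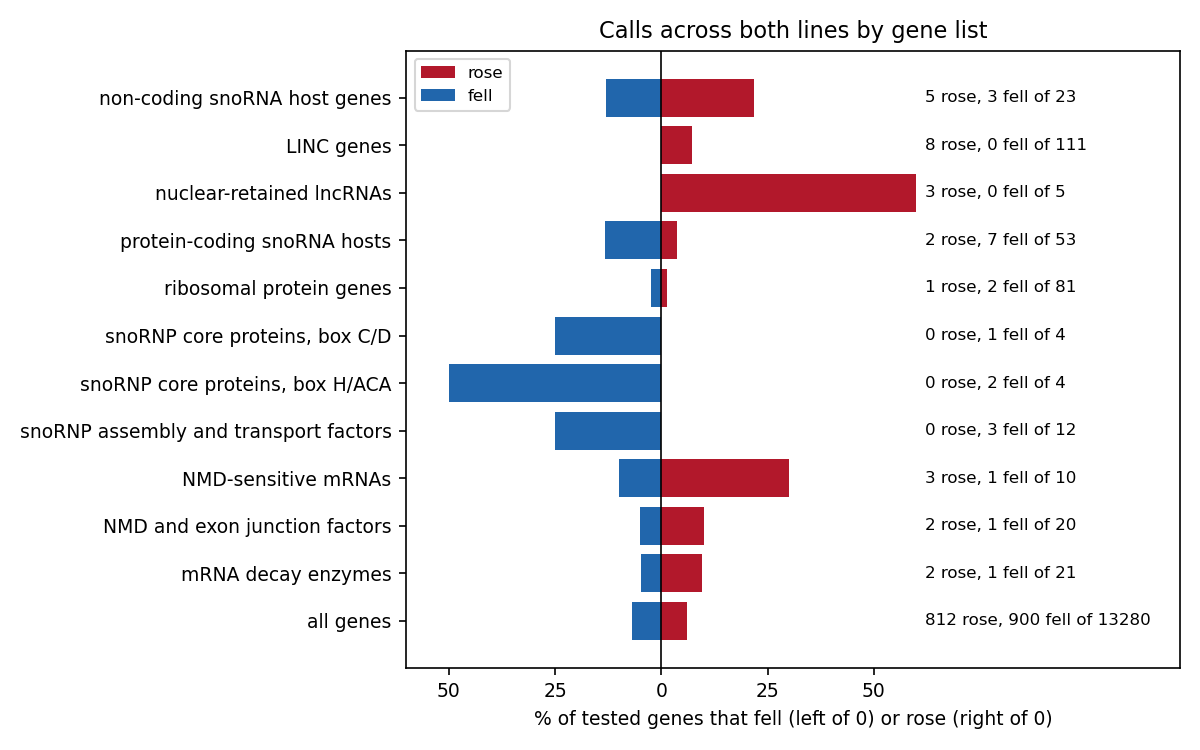
Share of tested genes in each list that rose (right of 0) or fell (left of 0) across both lines at an adjusted p under 0.05 in the edgeR test. The non-coding hosts had calls in both directions (5 rose, 3 fell of 23). Calls in the snoRNP lists of 4, 4 and 12 genes were decreases only, and all genes are given in the bottom bar.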

How the data were processed

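The authors deposited raw counts (whole reads per gene) for every lane. The submitters' processing notes list hg38 as the build and HISAT2, HTSeq and DESeq2 as tools. Versions and the strand setting are not given in the sources used here. A stranded kit was used. Of 11796 genes with at least 80 reads, 99.89% had GENCODE v29 coordinates. The authors' comparison tables (fold changes, p-values and 8 count columns) were not used.

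Lanes agreed within sampling noise (chi-square per degree of freedom 0.990 to 1.02) and were summed. R 4.3.3 with edgeR 4.0.16 (filterByExpr, TMM, robust quasi-likelihood fit, Benjamini-Hochberg adjustment over 13280 genes), limma 3.58.1, DESeq2 1.42.0 and Python with matplotlib were used. Log2 ratios within a line took a pseudocount of 0.5 counts, with exact binomial 95% intervals for counting error alone. Since each group was a single library, the p-values hold no measure of spread within a line. In the edgeR test the spread between lines was estimated largely from all genes.

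Hosts above 5 CPM in at least 1 library were named with all counts, those with at least 20 reads with counts where space allowed, and in each gene list up to 4 genes with the largest change at 5 CPM, plus those called. The genes, the lists and the printed sequences were chosen with earlier results of these data known. The ribosomal protein list was narrowed to protein-coding genes without S6 kinases after the counts were seen (with the kinases, 89 tested, 1 rose and 2 fell). It would otherwise have held pseudogenes (139 tested, 1 rose and 2 fell).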

Additional observations from a re-analysis of the deposited data

Results flagged for a closer look

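Each of 6 hosts had log2 ratios of opposite sign in the lines, with a counting interval of the difference that excluded 0, a condition settled after an earlier one had given no host. With 1 library per group, none of these differences was tested. How many of all genes meet the condition was not computed, so it is not known to be particular to the hosts. The log2 ratio in CUTLL1 minus that in TIB153 was -1.09 for SNHG20 (95% interval -1.72 to -0.47), -0.82 for SNHG10 (-1.39 to -0.25), -0.70 for SNHG11 (-1.14 to -0.25), -0.61 for SNHG15 (-0.82 to -0.40), -0.43 for SNHG17 (-0.65 to -0.20) and -0.33 for SNHG8 (-0.66 to -0.01). In all 6 the value was higher in TIB153. The opposite sign was lost in 2 of them when lanes were taken singly, as the log2 ratio in CUTLL1 was 0.084 for SNHG15 with lane 1 alone and 0.060 for SNHG8 with lane 2 alone. In CUTLL1 only SNHG17 lay beyond counting error, and in TIB153 all but SNHG17 did.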

How the results depend on the processing

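The pairing of libraries by line is the block of the reported test. Beyond it, no paired analysis was possible because each group held 1 library. Across lines, hosts that rose numbered 5 as reported, 3 with DESeq2's Wald test, 0 without the line block and 2 among the 10 tested hosts that overlap no gene other than small RNA genes (SNHG1 and SNHG5). Hosts that fell numbered 3 as reported, 0 with DESeq2's Wald test, 0 without the block, 1 with library totals, 1 with lane 2 alone and 0 among those 10 hosts. SNHG3 and SNHG16 lost their calls most often. With lane 2 alone their adjusted p was 0.109 and 0.0576, and with library totals 0.0896 and 0.0613. SNHG3 also missed the threshold with the 5 CPM filter (0.0619), DESeq2 size factors (0.0572) and limma-voom (0.0527). With lane 1 alone SNHG5 (0.0583) and SNHG16 (0.0508) lost their calls. EPB41L4A-AS1 passed with lane 1 alone (0.0399) and ZFAS1 with lane 2 alone (0.0485). Over all genes, calls were 812 and 900 as reported, 196 and 253 with DESeq2, and 827 and 552 with library totals. With DESeq2's Wald test DANCR lost its call, 0 protein-coding hosts rose and 4 fell, and the NMD factors and the decay enzymes each had 1 that rose and 0 that fell. Library totals moved the median of all genes by 0.05 in CUTLL1 and 0.06 in TIB153.

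At a 1.5-fold limit 4 hosts were higher in CUTLL1, 6 were higher in TIB153 and 3 lower in TIB153. The 2-fold count was 0 with lane 2 alone in CUTLL1, and 2 in TIB153 under DESeq2 size factors or library totals. Among the 10 hosts that overlap no gene other than small RNA genes, 0 were 2-fold higher in CUTLL1, 3 were higher and 1 lower beyond counting error in CUTLL1, and 6 higher and 0 lower in TIB153. The median log2 ratio in CUTLL1 was -0.054 among hosts of at least 5 CPM. That of the mean of both lines was 0.24, or 0.38 with lane 1 alone, 0.49 without CUTLL1 and 0.082 without TIB153. No called host changed direction under any alternative run.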

Other observations

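Current RefSeq symbols add host genes that the count files list under other names, a comparison added after the data were seen. SNHG32 (listed as C6orf48) had 484 reads with PKF and 174 in controls in CUTLL1, and 863 with PKF and 312 in controls in TIB153. It rose by 1.35 on the log2 scale (edgeR adjusted p = 0.000229), more than any host in the naming rule. SNHG29 (listed as LRRC75A-AS1) had 4088 reads with PKF and 2642 in controls in CUTLL1, and 5594 with PKF and 3960 in controls in TIB153. It rose by 0.44 (adjusted p = 0.0341) and held more reads than any host under the rule in every library. SNHG30 (LINC02001) and SNHG33 (LINC00888) did not pass, at log2 changes of 0.05 and -0.20.

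SCARNA13, inside SNHG10, had 23 reads with PKF and 4 in controls in TIB153, against 4 with PKF and 2 in controls in CUTLL1. This row was picked by its counts from 126 snoRNA and scaRNA rows. Their sum was 119 reads with PKF and 133 in controls in TIB153, and 78 and 104 in CUTLL1. The libraries were enriched for polyadenylated RNA, so the level of the mature scaRNA was not measured.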
